A study of Rattus norvegicus with 40 samples.

Results

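Adrenal glands of adult male Sprague Dawley rats given an organophosphate ester mixture at the 1000x dose were compared with those of control males, gene by gene, across the transcriptome. The comparison used 10 of the 40 RNA-seq libraries in the series: 5 of males at 1000x and 5 of male controls, taken by the labelled sex and dose, which matched the prefix and the last letter of their value columns. The other 30 libraries were males at 30x and 30000x, and female controls and females at the same 3 doses, with 5 libraries in each group. The labels call the libraries of a group biological replicates without naming the animals, and they give no amount behind the dose multiples, no vehicle and no length of exposure. Genes with at least 1 FPKM (fragments per kilobase of gene, scaled for sequencing depth) in at least 5 of the 10 libraries were compared, which kept 12426 of the 32545 genes listed (38.2%).

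Organophosphate esters are used as flame retardants and plasticizers and leach from the products that hold them. The adrenal gland joins 2 endocrine tissues: a cortex that makes glucocorticoids and mineralocorticoids from cholesterol under the control of pituitary hormone and angiotensin, and a medulla whose chromaffin cells release catecholamines. The deposited files list genes by Ensembl identifier and do not pair them with names, and 0 of the 32545 identifiers matched the 47357 rows of the RefSeq gene table used here. Genes are therefore given by identifier, without a role, and neither the tissue nor pathways could be checked against marker genes here.

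Reads recovered from the FPKM steps numbered 16323278 to 21032832 in the controls and 15789309 to 19089843 at 1000x. Across the compared genes, Spearman's correlation between libraries was 0.938 to 0.973 (median 0.953) among controls, 0.948 to 0.973 (median 0.963) among 1000x libraries and 0.944 to 0.970 (median 0.960) between the groups. Libraries of different groups were thus about as alike as libraries of the same group. Control replicate 2 stood apart from the rest. It lay at 34.96 on the first principal component (21.2% of the variance), where the other 9 libraries lay between -29.0 and 13.2, and its FPKM summed to 701598, against 524434 to 625547 in the others. Its deviation from the mean of the 10 libraries also followed gene length, with a Spearman's correlation over genes of -0.34 against -0.083 to 0.18 in the others, so that short genes were high in it. Values without it are given beside the results it moves.

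Only 1 gene passed the test in male adrenals at 1000x, in the fit of the 20 male libraries, and it was lower than in controls. ENSRNOG00000029651 (recovered length 2343 bp) was at 57.3, 59.0, 67.6, 55.3 and 61.5 FPKM in control replicates 1 to 5. At 1000x it was at 40.7, 32.7, 46.6, 40.1 and 33.2 FPKM in replicates 1 to 5. Every 1000x library lay below every control, and the gap between the highest 1000x library and the lowest control was 8.76 FPKM. Means were 60.1 ± 4.73 FPKM among controls and 38.7 ± 5.80 FPKM in the treated males (SD, n = 5 each), carried by 2526 to 2979 reads per control and 1495 to 2292 reads per 1000x library. On the log2(FPKM + 1) scale this is a difference of -0.63 (SE 0.096, 95% interval -0.83 to -0.43), with a limma adjusted p of 0.028 in a fit of the 20 male libraries. In whole glands, fewer cells of a type and less RNA per cell cannot be told apart. Genes passing the threshold, an adjusted p under 0.05, were 0 in the higher direction (0% of genes) and 1 in the lower (0.00805%).

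The fall of this gene was not among the largest in size. It ranked 125 among all genes by the size of the lower difference and first by unadjusted p. Its SD on the log2 scale was 0.11 among controls and 0.21 at 1000x, against medians over all genes of 0.24 and 0.20. The next gene by p had a limma adjusted p of 0.40. The call was lost when any 1 of 8 of the 10 libraries was left out (limma adjusted p 0.063 to 0.157), and it was kept without control replicate 4 (0.0496) or 1000x replicate 3 (0.0057). Without control replicate 2, which lay in the middle of the controls for this gene, limma gave -0.64 (SE 0.10) and an adjusted p of 0.080. In a fit of the 10 compared libraries alone the difference was the same and its limma adjusted p was 0.41. The limma adjusted p was 0.41 with quantile normalization of the 20 male libraries and 0.48 with libraries scaled to equal FPKM totals. The difference was then -0.57 and -0.52.

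In the other dose groups the same gene averaged 36.5 ± 1.21 FPKM for 30x and 48.7 ± 5.80 FPKM for 30000x (SD over 5 libraries). Its difference from control at 30x was -0.70 and passed (limma adjusted p = 0.0066), and that at 30000x was -0.30 and did not (limma adjusted p = 0.75). The 5 libraries at 30x, between 34.4 and 37.2 FPKM, fell inside the range at 1000x. Those at 30000x, between 41.3 and 53.8 FPKM, overlapped it at the top and lay under every control. These doses share the 5 control libraries with 1000x. For ENSRNOG00000029651 the male control mean, 60.1 FPKM, was the highest of the 8 groups of the series, with the others at 27.7 to 48.7 FPKM. In females, ENSRNOG00000029651 had 15.6 to 35.9 FPKM in controls and 24.9 to 41.8 FPKM at 1000x, so the groups overlapped. The female difference was 0.26 (SE 0.24, limma adjusted p = 1.00). The female change minus the male change was 0.89 (SE 0.26), with an unadjusted limma p of 0.0018 and an adjusted p of 0.98, which did not pass.

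**Figure D1:**
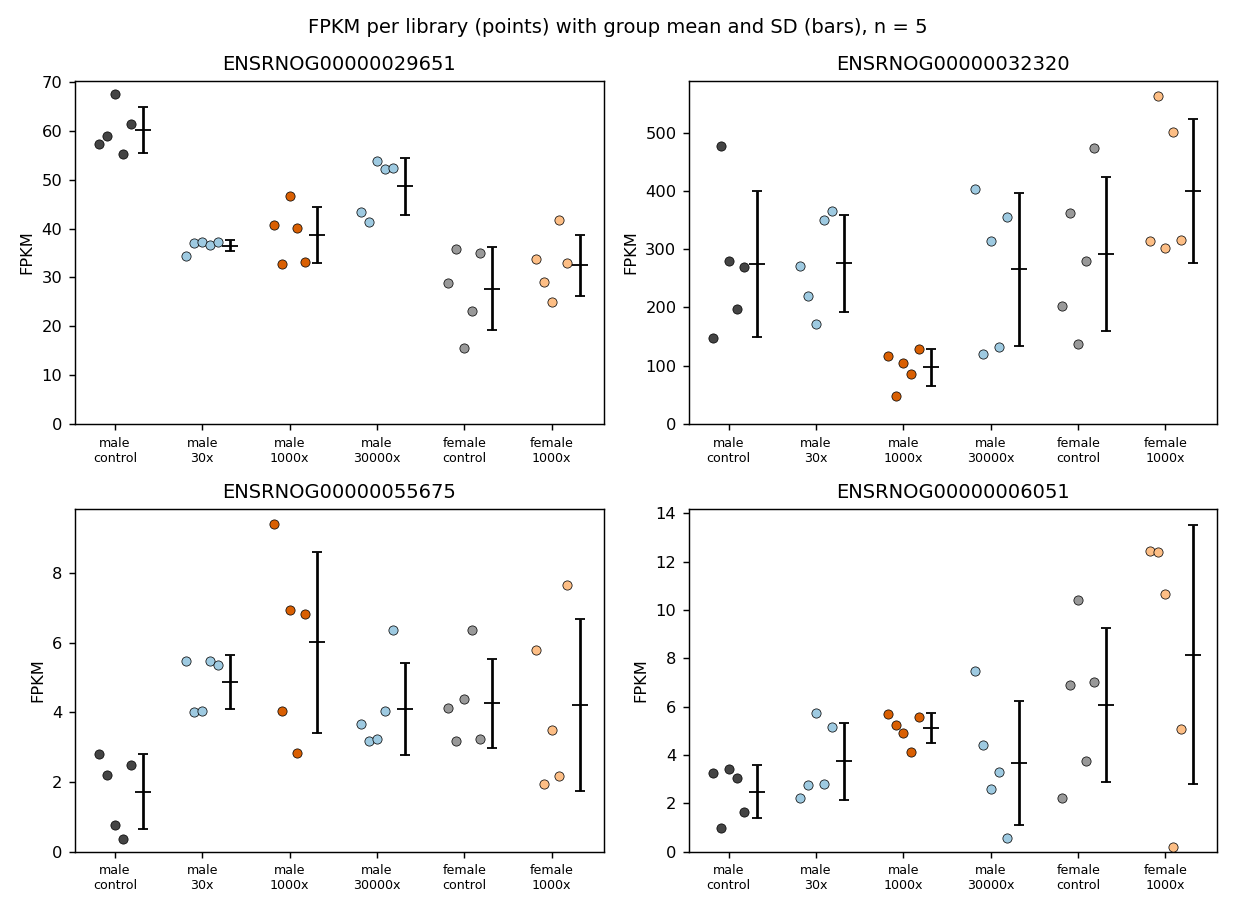
FPKM of the 4 identifiers named here in each library (points, n = 5 per group), with the group mean and SD as bars, for the 4 male groups and for female controls and females at 1000x. In the male 1000x group ENSRNOG00000029651 and ENSRNOG00000032320 lay below all controls, and ENSRNOG00000055675 and ENSRNOG00000006051 lay above them.

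Most genes differed little between the groups. The median difference over the 12426 genes was -0.0068 on the log2(FPKM + 1) scale, and 48.4% of genes had a higher mean at 1000x. The middle of the distribution ran from -0.12 at the 25th percentile to 0.11 at the 75th, and from -0.63 at the 1st percentile to 0.57 at the 99th. Differences of at least 1 were found in 27 genes in the higher direction and 28 in the lower (0.443% of genes together). An unadjusted limma p under 0.05 was found for 919 genes (7.40%), 399 of them higher and 520 lower at 1000x. The 95% interval of the difference had a median half-width of 0.29, and for 92.9% of genes it lay within ±1. The added 1 shrinks differences of genes with low FPKM, whose intervals are therefore too narrow to be read as fold changes.

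Set against the spread between libraries of a group, few differences stood out. The median pooled standard deviation within groups was 0.23, and the median size of a difference was 0.11. In 2260 genes (18.2%) the difference was larger than the pooled SD, and in 261 genes (2.10%) it was more than 2 pooled SD. The largest differences were mainly in genes that varied widely within a group. Of the 55 genes with a difference of at least 1, 41 had a range of at least 2 log2 units within 1 of the groups, against 571 of all genes (4.60%), and 6 had groups that did not overlap. The gene with the largest difference of all, -2.48, ran from 2.08 to 80.5 FPKM among controls and from 0.69 to 3.34 FPKM at 1000x, and its limma adjusted p was 0.61.

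**Figure D2:**
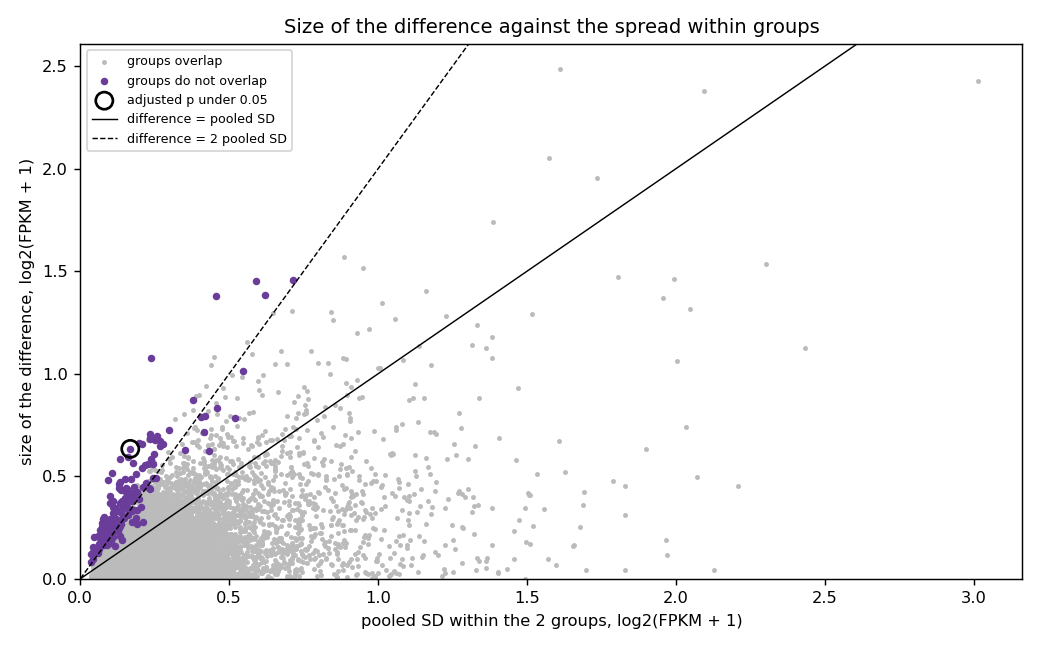
Size of the difference between 1000x and control (y, log2(FPKM + 1)) against the pooled SD within the groups (x, same scale) for 12426 genes, with lines at 1 and 2 pooled SD. The 181 genes whose groups do not overlap had pooled SDs of 0.035 to 0.72, with a median of 0.13, and 30 of them lay above the median of all genes, 0.23. All 55 genes with a difference of at least 1 lay above it.

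Spread itself was not the same in the groups. The median SD of a gene was 0.24 among controls and 0.20 among 1000x libraries, and 62.2% of genes varied more among controls. This order rested on control replicate 2. Without it the median SD among controls was 0.19 and 47.0% of genes varied more among controls.

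In 181 genes (1.46%) the groups did not overlap, with all 5 libraries at 1000x above all 5 controls in 67 genes (0.539%) or below them in 114 (0.917%). Of these, 13 were higher by at least 0.5 and 24 were lower by at least 0.5, and 1 of the 181 passed the adjusted threshold. The corresponding counts against the same controls were 67 higher and 117 lower at 30x (1.48% of genes together), and 31 higher and 49 lower at 30000x (0.644%). In females at 1000x against female controls they were 17 and 24 (0.33%). Without male control replicate 2 the count at 1000x was 328, 129 higher and 199 lower. Groups of 4 against 5 separate more easily than 5 against 5. Leaving out any 1 of the 10 libraries gave 237 to 387, and the count was more than 1.5 times the full one without control replicate 1, 2 or 5 (328 to 332) or without 1000x replicate 1, 2, 3 or 5 (275 to 387).

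**Figure D3:**
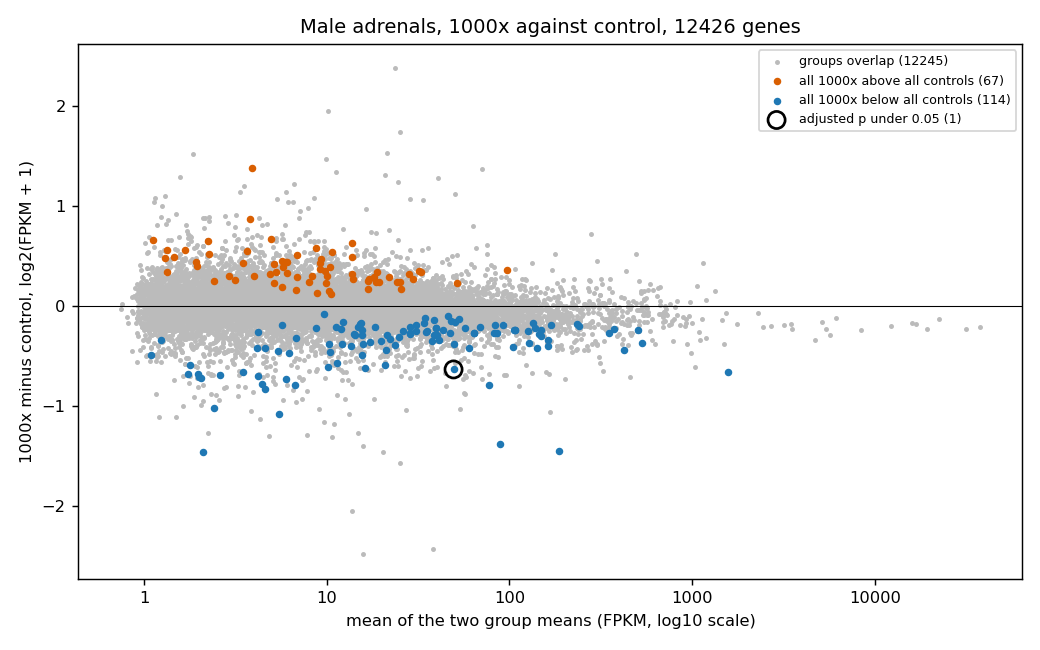
Difference between 1000x and control (y, log2(FPKM + 1)) against mean abundance (x, FPKM, log scale) for 12426 male genes. The 67 genes with all 1000x libraries above all controls are orange, the 114 with all below are blue, and the ring marks ENSRNOG00000029651.

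Among genes of at least 5 FPKM in either group, the largest lower difference without overlap was in ENSRNOG00000032320, a gene of 68 bp. It was at 148, 477, 280, 196 and 270 FPKM in control replicates 1 to 5. At 1000x it was at 117, 48.8, 104.4, 85.5 and 129 FPKM. Its highest 1000x library lay 18.4 FPKM below its lowest control, and control replicate 2 was the highest of the 10. The means were 274 ± 126 and 97.0 ± 31.5 FPKM (SD, n = 5 each), from 210 to 646 reads in controls and 72 to 169 at 1000x. Whether so short a gene shares reads with near-identical copies was not tested. The difference was -1.45 (SE 0.37), which did not pass (limma adjusted p = 0.53), and it was -1.22 without control replicate 2. This gene averaged 276 ± 82.9 FPKM for 30x and 265 ± 131 FPKM for 30000x (SD over 5 libraries), with log2 differences from the same controls of 0.066 and -0.11. The means of the doses on either side were thus near that of the controls, while the lowest library at 30000x, at 120 FPKM, lay inside the range at 1000x. Females averaged 291 ± 132 FPKM without and 399 ± 124 FPKM with the 1000x mixture (SD over 5 libraries). The female change minus the male change was 1.98 (SE 0.57, limma adjusted p = 0.98).

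The largest higher difference without overlap was in ENSRNOG00000055675 (137 bp). It was at 2.79, 2.20, 0.78, 0.36 and 2.50 FPKM in control replicates 1 to 5, from 1 to 8 reads per library. At 1000x it was at 9.40, 4.04, 6.95, 2.83 and 6.84 FPKM, from 7 to 22 reads. The groups were separated by 0.033 FPKM, between control replicate 1 and 1000x replicate 4. The difference was 1.39 (SE 0.28), which ranked 3 by unadjusted p among all genes and did not pass (limma adjusted p = 0.40). Its means at 30x and 30000x were 4.88 ± 0.78 and 4.10 ± 1.32 FPKM (SD, n = 5 each), also above the control mean of 1.73 ± 1.09. Female controls averaged 4.26 ± 1.28 FPKM and treated females 4.21 ± 2.46 FPKM (SD over 5 libraries). Male controls had the lowest mean of the 8 groups of the series for this gene.

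Next in size was ENSRNOG00000006051 (309 bp). Controls held 3.25, 0.97, 3.44, 3.07 and 1.66 FPKM in replicates 1 to 5, and 1000x libraries held 5.68, 5.22, 4.93, 4.12 and 5.56 FPKM. These values rest on 6 to 21 and 23 to 35 reads. The difference of 0.87 (SE 0.34) did not pass (limma adjusted p = 0.61), and was 0.68 without control replicate 2. At 30x and 30000x its libraries ran from 2.22 to 5.73 and from 0.57 to 7.50 FPKM and overlapped the controls.

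The 12 largest non-overlapping differences in each direction were taken among genes averaging 5 FPKM or more in either group, so larger ones among genes below that level are left out. This rule admits a higher gene through its 1000x mean alone and holds every lower gene to at least 5 FPKM in controls, so the control levels of the lists are not compared. The 12 higher genes had control means of 1.73 to 11.2 FPKM and ratios of 1000x to control means of 1.42 to 3.48. The 12 lower genes had control means of 5.42 to 1927 FPKM and ratios of 0.35 to 0.67. Limma adjusted p values were 0.40 to 0.61 for the higher genes. Among the lower genes, ENSRNOG00000029651 was at 0.028 and the other 11 were at 0.43 to 0.61. These shifts were not particular to 1000x. Against the same controls, the 12 higher genes differed by 0.20 to 1.21 at 30x and 0.14 to 0.98 at 30000x. The lower genes differed by -0.72 to -0.11 at 30000x. At 30x ENSRNOG00000032320 was at 0.066 and the other 11 at -1.14 to -0.11. The shared controls mean that the other doses are not a separate check.

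The lower differences lay mainly in abundant genes. Sorted by mean FPKM into 4 classes of near-equal size, the 3107 most abundant genes (25.5 FPKM and above) held 7 non-overlapping genes in the higher direction and 60 in the lower, and their median difference was -0.066. The 3107 least abundant (up to 4.15 FPKM) held 18 and 12, with a median difference of 0.038. Relative to the median of all genes, that of the most abundant class was -0.059. With quantile normalization the most abundant class held 20 higher and 15 lower with a median of 0.0062, and over all genes the split was 78 higher and 73 lower (51.7% higher, against 37.0% with the deposited size factors). Quantile normalization gives every library the same distribution of values, which levels such classes by construction. When every library was scaled to the same FPKM total, the most abundant class held 41 higher and 5 lower, the split over all genes was 166 higher and 16 lower (91.2% higher), and the median of all genes shifted to 0.097. Relative to that shift the median of the most abundant class was -0.047. The counts by direction thus followed the scaling. The lower median of abundant genes relative to all genes was present with the deposited size factors and with equal FPKM totals. Both multiply every value of a library by the same factor, which moves its genes about alike. The second value is therefore not a separate check of the first. The most abundant class lay a median of 0.19 above the mean of the 10 libraries in control replicate 2, against -0.091 to 0.032 in the other 9. Without control replicate 2 its median difference was -0.025 in place of -0.066, and it held 25 higher and 88 lower genes without overlap. The part of this library in the pattern was not tested beyond leaving it out. No direction is therefore given to the transcriptome as a whole. The 4 named genes kept their direction under both other scalings, relative to these shifts of the median.

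**Figure D4:**
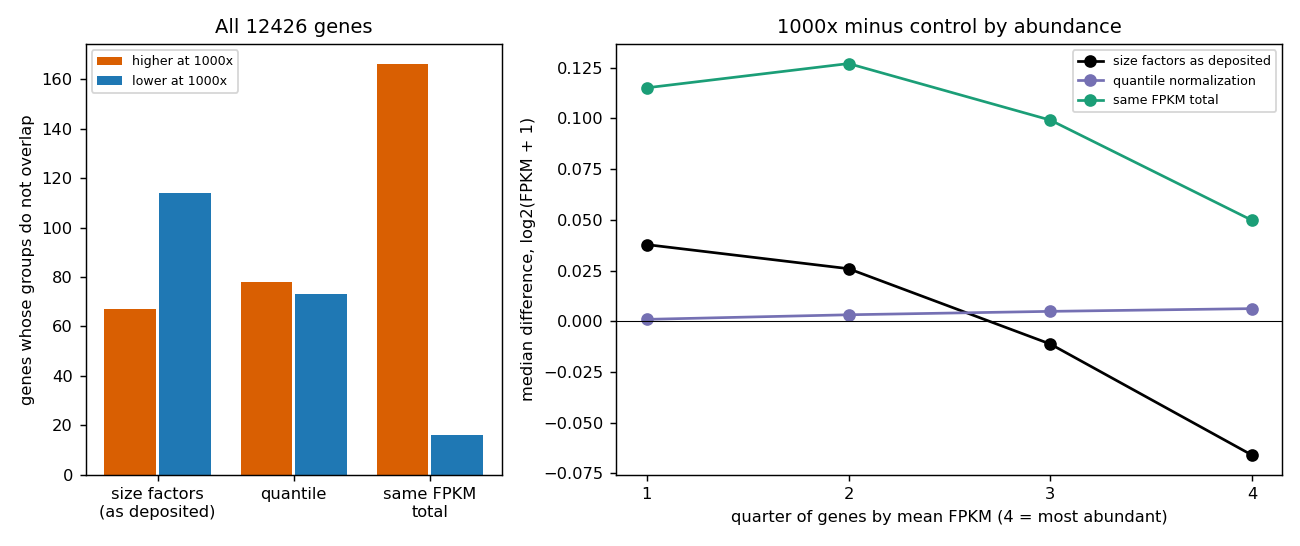
Left, number of genes whose male groups do not overlap, higher or lower at 1000x, under 3 ways of scaling the libraries (bars start at 0). Right, median difference (log2(FPKM + 1)) in 4 classes of genes by mean FPKM under the same scalings. The split moved from 67 higher and 114 lower to 166 and 16, and under quantile normalization the medians of the 4 classes lay between 0.00093 and 0.0062.

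Counts without overlap also differed by gene length. Among the 3107 longest genes (3435 bp and above), 31 were non-overlapping in the higher direction and 15 in the lower. Among the 3107 shortest (up to 1363 bp) the counts were 9 and 38. With quantile normalization they were 32 and 12 for the longest class and 15 and 28 for the shortest. With equal FPKM totals they were 49 and 0, and 35 and 10. The relation of a library's deviation to gene length was -0.34, 0.021, 0.029, 0.098 and 0.15 (Spearman's correlation over genes) in the 5 controls, lowest in replicate 2, and -0.083 to 0.18 at 1000x. Without control replicate 2, over the same genes, the longest class held 36 higher and 46 lower genes and the shortest held 40 and 51. The excess of higher genes in the longest class was thus absent without this library, and was present when any 1 of the other 9 was left out.

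Females at 1000x gave the same contrast in libraries and controls that the male comparison did not use. Across the 12426 genes the male and female differences had a Spearman's correlation of -0.21 and a Pearson's r of -0.19. Genes share libraries within each sex, so this describes 2 sets of 10 libraries. Of all genes, 42.4% had the same sign in both sexes. Among the 67 genes with non-overlapping higher values in males, 26 were also higher in females (38.8%). Among the 114 with lower values in males, 28 were also lower in females (24.6%), and their median female difference was 0.082. Without male control replicate 2, over the same genes, the shares with the same sign in females were 56 of 130 (43.1%) and 71 of 200 (35.5%). None of the 181 genes had non-overlapping groups of the same sign in females, and 1 had them with the opposite sign. Over all 12426 genes such groups were also rare in females (41 genes, 0.33%), so these counts say little about the 181. Leaving out male control replicate 2 gave a Spearman's correlation of -0.11. Leaving out female control replicates 1, 3 and 4 in turn gave -0.32, -0.032 and -0.10. The value was -0.12 without treated female replicate 4, and between these for each of the other 15 libraries left out.

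**Figure D5:**
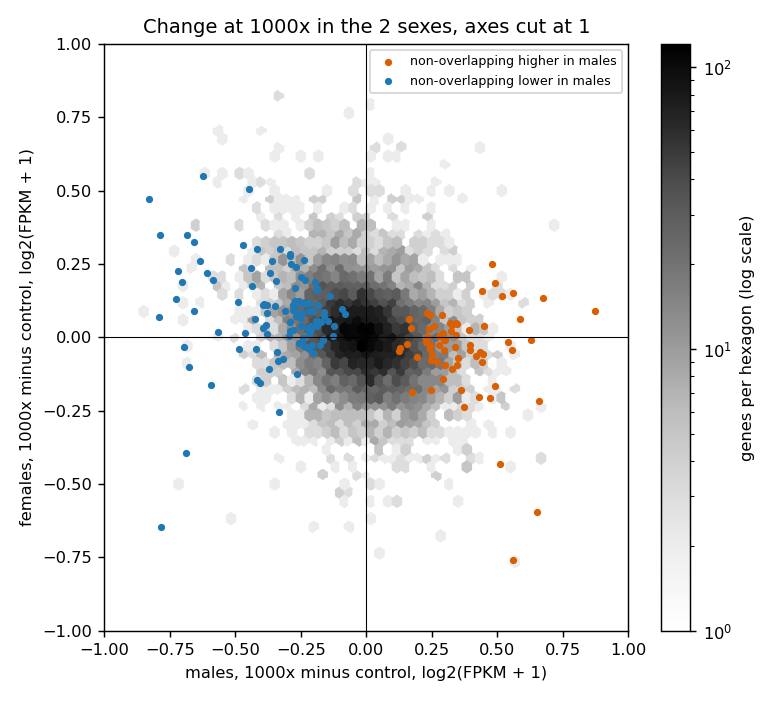
Change at 1000x in females (y) against males (x), as log2(FPKM + 1) differences from the controls of the same sex, for genes within ±1 on both axes. Genes without overlap in males are coloured, and they spread on both sides of 0 in females.

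Whether the change at 1000x differed between the sexes was tested for 13219 genes as an interaction in a fit of all 40 libraries. Limma called 0 genes (0%) at an adjusted p under 0.05, with 0.98 as the smallest adjusted p. An unadjusted limma p under 0.05 was found for 630 of the 13219 genes. Were genes independent, this threshold would give about as many without any sex difference. Genes share libraries, so the count does not settle whether the sexes differed. With the replicate number as a block within each sex, limma called 1 gene.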

How the data were processed

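Adrenal RNA was sequenced in 40 libraries. Per the submitters' processing notes, HISAT2 2.0.5 and featureCounts 1.5.0-p3 were used; no source used here gives the build, annotation, strand setting or filters. The authors deposited FPKM values for 32545 genes, 1 table per library. Their steps could be read as whole reads. For all 20717 genes above 0 in 3 or more libraries, a gene length was found that put every value near a whole number. The first such length was taken, so that 100.0% of 680244 values lay within 0.05 of a whole number follows from this choice. Reads and lengths also assume a whole factor, divided out because the fitted constant was 1.99 times the value implied by library totals. Library scales behaved as size factors (0.966 to 1.23 here). Whether each counted unit was a single read or a pair is unknown.

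Differences were fitted in limma 3.58.1 (R 4.3.3) on log2(FPKM + 1), over the 20 male libraries in 4 groups, with a trended prior, two-sided tests and Benjamini-Hochberg adjustment across all genes. The fit was tested on simulated data drawn independently for each gene. Shifts shared by many genes of a library were not simulated, so that test is not used as support here. No pair of libraries within a group agreed within sampling noise (chi-square per degree of freedom 27.2 to 102.1 over 20 pairs). Identifiers are named where they passed, then by the largest differences without overlap among those averaging 5 FPKM or more in either group, at most 2 per direction because the files give no names. The planned gene lists and markers, by symbol, could not be applied. Genes, lists and tests were chosen with earlier results of these data known. Alternatives were a pseudocount of 0.1, no filter or a mean of at least 5 FPKM, other scalings, library weights, blocks, the 10 libraries alone, voom on recovered reads and each library left out.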

Additional observations from a re-analysis of the deposited data

Results flagged for a closer look

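In 3 of 32 sets of 5 libraries, 1 library was distant from the remaining 4. For independent, normally distributed values chance gives about 1 in 20 such sets. Correlations of libraries with their own group are not independent, so no excess is read from this count. ENSRNOG00000029651 in males at 30x had 1 library at 34.4 FPKM, below the rest at 36.6 to 37.2 FPKM. ENSRNOG00000055675 in males at 30000x had 1 library at 6.38 FPKM, above the rest at 3.17 to 4.05 FPKM. In males at 1000x, 1 library had a median Spearman's correlation with its group of 0.9596, against 0.9639 to 0.9644 for the rest.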

How the results depend on the processing

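The lower level of ENSRNOG00000029651 kept its direction in 10 alternative settings and in 10 fits that each left out 1 library (-0.70 to -0.58, limma adjusted p 0.0057 to 0.157). It passed with a pseudocount of 0.1, without a filter, with a mean of at least 5 FPKM, with voom and with either block (limma adjusted p 0.021 to 0.044). The blocks were the replicate number and runs of neighbouring numbers in the value column names. What these runs mark is not given by the labels, and the main fit left them out. ENSRNOG00000029651 did not pass, and 0 genes did, with quantile normalization (-0.57), equal FPKM totals (-0.52), library weights (-0.59, adjusted p 0.10) or the 10 libraries alone (-0.63). The cause was not tested. Leaving out 1 library gave 0 or 1 genes passing and 237 to 387 without overlap. The median difference over all genes was -0.00068 without a filter, -0.021 for a mean of at least 5 FPKM, 0.0043 with quantile normalization and 0.097 with equal FPKM totals. The ratio of the median SD among controls to that at 1000x was 1.20, and ran from 0.955 without control replicate 2, where the order reversed, to 1.38 without 1000x replicate 5. The other 3 named genes kept their direction and stayed short of the threshold in every setting run.

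With the replicate number as a block, ENSRNOG00000029651 had the same difference of -0.63 (limma adjusted p 0.024) and 1 gene passed. The labels do not say that these numbers pair the libraries. Over all genes, deviations of same-numbered libraries correlated at -0.17 to 0.21, and 1 of 5 pairs was over 0.1. With so few pairs, and without a label for what they would share, this cannot exclude a pairing. A replicate block within each sex gave 1 gene with a sex difference (limma adjusted p 0.031), against 0 without it and 0 in each of 20 fits without 1 library. The settings for abundance and length classes, spread and the comparison of the sexes were chosen after seeing the data. Settings for the gene lists were not run, since no list could be matched. Genes with few reads, such as the 1 to 8 behind the controls of ENSRNOG00000055675, are limited by counting error.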
